A study of Mus musculus with 18 samples.

Results

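The contrast described here is the effect of *Zeb1* loss that macrophages had in common across 3 treatments. It set the 9 *Zeb1*∆M libraries against the 9 *Zeb1*WT libraries, with treatment as an additive term, and so used 18 of the 18 libraries of the series. RNA was sequenced from mouse peritoneal lavage cells of strain C57BL/6, sorted by flow cytometry as F4/80+ CD11b+ cells, with 2 to 3 mice pooled for each library. *Zeb1*WT stands for Zeb1f/f mice, which carry the floxed gene without Cre, and *Zeb1*∆M for Zeb1f/f LysM Cre mice, so both genotypes carry the floxed allele and only *Zeb1*∆M carries Cre. Loss of *Zeb1* and the presence of Cre therefore cannot be told apart in any genotype difference given here. Cre sits in the endogenous *Lyz2* locus and is active in myeloid cells at large, not in macrophages alone, and whether 1 or both copies of that locus carried it is not given in the sources used here. Each genotype had 3 libraries in each treatment. In LPS, mice had vehicle and later a single dose of LPS, in LPS + LPS a first dose of LPS and later a second, and in Metformin + LPS a pretreatment with Metformin before a single dose of LPS. Replicates were separate pools, and p-values measure the spread between these pools. In the shared fit that spread also takes in genotype differences that vary between treatments. Mouse age is not given with the libraries.

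ZEB1 is a zinc-finger transcription factor that binds E-box sequences and is best known as a repressor of epithelial genes. ZEB2 is its paralog and is abundant in macrophages. Lipopolysaccharide (LPS), a wall component of Gram-negative bacteria, is sensed by TLR4 and induces cytokine and chemokine genes through NF-kB and interferon factors, and an earlier dose makes macrophages less responsive to the next. Metformin is a drug against diabetes that inhibits mitochondrial respiration. The resting peritoneal cavity holds mainly large, GATA6-dependent resident macrophages and fewer small, monocyte-derived ones, and its lavage also contains B cells, mast cells and eosinophils, with neutrophils arriving upon inflammation.

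Of 55573 genes in the count table, 13443 had enough counts to be tested. The *Zeb1*WT libraries held 16753562 to 30570439 counts and the *Zeb1*∆M libraries 14053706 to 24133309. Levels are CPM, counts scaled to a common library size, with TMM factors, which adjust for a few genes that take a large share of a library. In Metformin + LPS these factors differed with genotype, from 0.445 to 0.708 in *Zeb1*WT and from 0.843 to 0.879 in *Zeb1*∆M, and their part in the results was not tested. The Metformin + LPS libraries carry another series of library codes than the other 12, so treatment and library series cannot be told apart, whereas both genotypes stand in each series. Replicate 1 of *Zeb1*WT LPS + LPS does not stand in the study's source sheets, so counts are also given without it where that moves them by over 1.5 times. The macrophage genes *Adgre1* (F4/80), *Itgam* (CD11b) and *Csf1r* (the CSF1 receptor) averaged 2565, 1057 and 999.6 CPM in *Zeb1*WT and 2673, 1234 and 1011 CPM in *Zeb1*∆M, with adjusted p = 0.706, 0.636 and 0.92 (edgeR). These macrophage genes were named after their values were seen, and the rest of their list is given further on. The counts of *Xist* were above 0 in every library, and 4 genes of the Y chromosome had 0 counts in all 18.

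*Zeb1* (ENSMUSG00000024238.15, chr18:5591860-5775467, GRCm38) itself fell in *Zeb1*∆M macrophages but was not absent. Its level was 6.41, 6.69 and 7.21 CPM in *Zeb1*WT LPS and 2.30, 3.01 and 1.38 CPM in *Zeb1*∆M LPS. In LPS + LPS it was 0.912, 2.52 and 1.07 CPM against 0.738, 0.926 and 0.758, and in Metformin + LPS 12.6, 12.9 and 12.3 CPM against 4.21, 4.79 and 3.92. The genotypes did not overlap in LPS or Metformin + LPS, but in LPS + LPS the lowest *Zeb1*WT library lay below the highest *Zeb1*∆M library. The shared log2 fold change was -1.37 (standard error, SE, 0.21, n = 9 per genotype, adjusted p = 0.000848, edgeR quasi-likelihood test with Benjamini-Hochberg adjustment). The table holds 1 count per gene, so reads from exons outside the floxed part are included. Without the 6 Metformin + LPS libraries the edgeR adjusted p was 0.0511. *Zeb2*, the paralog, had medians of 111 and 115 CPM and a shared log2 fold change of 0.06 (SE 0.11, edgeR adjusted p = 0.799).

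The gene whose locus carries Cre was lower as well. *Lyz2* (lysozyme M, ENSMUSG00000069516.8, chr10:117277331-117282321) ranged from 11300 to 92600 CPM in *Zeb1*WT, with a median of 39700, and from 6890 to 38100 CPM in *Zeb1*∆M, with a median of 11000. It fell by 1.23 on the log2 scale (SE 0.28, edgeR adjusted p = 0.012), but DESeq2 did not call it (adjusted p = 0.121). The log2 fold changes were -0.56 in LPS, -0.84 in LPS + LPS and -2.33 in Metformin + LPS. *Lyz1*, the adjacent lysozyme gene, whose near-identical sequence could share reads with *Lyz2*, had a shared log2 fold change of 0.80 (SE 0.39, edgeR adjusted p = 0.22). That value averages unlike treatments. *Lyz1* stood at 694 to 1080 CPM in *Zeb1*WT LPS against 2670 to 6110 in *Zeb1*∆M LPS. It stood at 247 to 518 CPM against 640 to 710 in LPS + LPS, and overlapped in Metformin + LPS, at 856 to 4200 against 1200 to 2040. Among 40 tested neighbours of *Lyz2* (20 on each side), 1 was called higher and 3 lower. These were *Cand1* (0.48, edgeR adjusted p = 0.00382), *Nap1l1* (-0.40, 0.0303), *Glipr1* (-1.21, 0.000534) and *Ifng* (-2.11, 0.0164). Of 32 tested neighbours of *Zeb1*, 2 were called, both higher, namely *Jcad*, an endothelial junction gene (0.96, edgeR adjusted p = 0.0261), and *Gata6* (1.48, 0.0431). These are shares of 10% and 6.25%, where 2.47% of all tested genes were called higher and 5.26% lower. *Nap1l1* lost its call in 9 of the 18 fits without 1 library (edgeR adjusted p up to 0.0681), *Gata6* in 13 (up to 0.0906), and *Jcad* without replicate 3 of *Zeb1*∆M LPS (0.0574) or replicate 2 of *Zeb1*∆M Metformin + LPS (0.051).

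Across all genes, more were lower than higher without *Zeb1*. At an adjusted p under 0.05, 332 genes (2.47% of those tested) were higher and 707 (5.26%) lower in *Zeb1*∆M. The median log2 fold change of all genes tested was 0.01, and 3080 genes had an unadjusted p under 0.05. The median shared log2 fold change was 0.67 among genes called higher and -0.93 among genes called lower. Of the calls, 61 rises and 319 falls were at least 1 in size on the log2 scale. Without replicate 1 of *Zeb1*WT LPS + LPS, 444 genes were higher and 732 lower, and without replicate 1 of *Zeb1*∆M Metformin + LPS the total fell from 1039 to 669.

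Taken 1 treatment at a time, in a fit of the 6 groups with 3 libraries against 3, fewer genes were called. In LPS, 28 genes were higher and 126 lower (1.15% of genes tested), and 62 and 182 without replicate 1 of *Zeb1*WT LPS + LPS. The second LPS dose gave 62 rises and 29 falls (0.677%), and Metformin + LPS 169 rises and 620 falls (5.87%). The excess of rises after the second dose rested on the library and the tool, since there were 205 rises and 192 falls when replicate 1 of *Zeb1*WT LPS + LPS was left out and 173 rises and 198 falls by DESeq2. Genes called lower in the shared fit had median log2 fold changes of -0.71 in LPS, -0.69 in LPS + LPS and -1.15 in Metformin + LPS, and genes called higher 0.56, 0.67 and 0.68, although the same libraries chose them. Group means lay on the same side in all 3 treatments for 97.1% of the called genes and for 39.1% of all genes, again with the calling having used these libraries. All 3 libraries of 1 genotype stood above all 3 of the other in every treatment for 52 genes higher (0.387%) and 126 genes lower (0.937%) in *Zeb1*∆M, of which 50 and 123 were called.

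To see the direction in libraries that had no part in the calling, genes were called in 2 treatments and looked up in the third. Genes called in LPS + LPS and Metformin + LPS comprised 153 higher and 416 lower. In LPS, 115 (75.2%) of the former and 383 (92.1%) of the latter lay on the same side, with median log2 fold changes of 0.24 and -0.62, whereas 50.7% of all genes lay above 0 and 49% below. Genes called in LPS and Metformin + LPS kept their side in LPS + LPS in 76 of 86 rises (88.4%) and 385 of 451 falls (85.4%), with medians of 0.41 and -0.59. Here 48% of all genes lay above 0 and 51.8% below. Genes called in LPS and LPS + LPS kept it in Metformin + LPS in 59 of 75 rises (78.7%) and 171 of 199 falls (85.9%), with medians of 0.40 and -1.09, against 51.7% and 47.8% of all genes. Genes move together and are no independent replicates, so no p is given. Without replicate 1 of *Zeb1*WT LPS + LPS, the rises called in LPS and LPS + LPS kept their side in 182 of 299 (60.9%) in Metformin + LPS. On their own the 6 LPS + LPS libraries gave 0 calls by edgeR, with 1511 genes at an unadjusted p under 0.05.

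**Figure D1:**
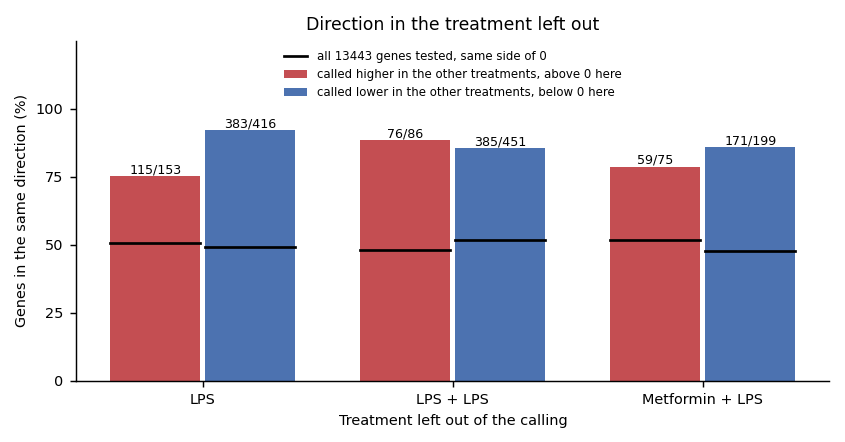
Bars give the percentage of genes, called higher (red) or lower (blue) in *Zeb1*∆M in 2 treatments, that lay on the same side of 0 in the treatment named on the x axis, with the counts above. Black lines give the percentage of all 13443 genes on that side, and every bar, from 75.2% to 92.1%, stands above its line.

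Genes most even across treatments were picked among calls of at least 1 in size on the log2 scale whose genotypes overlapped in no treatment. The non-overlap and evenness of *Edn1*, *Clec7a*, *Il1b*, *Cxcl2* and *Glipr1* follow from that rule and are no separate result. The falls so picked included genes of the inflammatory response. *Edn1* (endothelin 1, a vasoconstrictor peptide, ENSMUSG00000021367.8, chr13:42301476-42307990) was at 66.8, 66.4 and 37.3 CPM in *Zeb1*WT LPS and 20.2, 26.6 and 24.4 CPM in *Zeb1*∆M LPS. It was at 222, 134 and 146 CPM against 58.3, 53.1 and 55.5 in LPS + LPS, and at 257, 213 and 312 CPM against 83.3, 98.5 and 64.1 in Metformin + LPS. As the rule required, no library of 1 genotype overlapped the other in any treatment, although *Edn1* levels differed between treatments. It had the smallest adjusted p of all genes (log2 fold change -1.51, SE 0.14, edgeR adjusted p = 1.61e-05), with -1.26, -1.59 and -1.67 in LPS, LPS + LPS and Metformin + LPS. *Clec7a* (dectin-1, the receptor for fungal beta-glucan, ENSMUSG00000079293.11, chr6:129461591-129472779) was at 27.3, 30.2 and 30.8 CPM in *Zeb1*WT LPS against 10.6, 12.2 and 14.8, at 19.9, 22.2 and 34.4 against 12.4, 13.2 and 13.3 in LPS + LPS, and at 47.2, 42.3 and 59.6 against 24.9, 19.8 and 21.4 in Metformin + LPS. It was lower by 1.23, 0.98 and 1.17 on the log2 scale in the 3 treatments, with a shared value of -1.13 (SE 0.12, edgeR adjusted p = 4.91e-05). *Edn1* and *Clec7a* were the genes called in the shared fit and in each treatment.

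*Il1b* (interleukin 1 beta, the main fever-inducing cytokine of macrophages) ranged from 331 to 2030 CPM with a median of 954 in *Zeb1*WT and from 157 to 566 with a median of 232 in *Zeb1*∆M. Its genotypes did not overlap within any treatment, as the rule required (log2 fold change -1.70, SE 0.20, edgeR adjusted p = 0.000216). *Tnf*, the cytokine tumour necrosis factor, had 88.6 to 201 CPM (median 134) against 49.8 to 116 (median 75.4), also without overlap within a treatment (-0.88, SE 0.11, edgeR adjusted p = 0.000258). The neutrophil-attracting chemokine gene *Cxcl2* changed by -1.07, -0.88 and -1.26 in LPS, LPS + LPS and Metformin + LPS, and *Glipr1*, a neighbour of *Lyz2*, by -1.17, -1.03 and -1.44. Both fell in the shared fit (edgeR adjusted p = 0.0019 and 0.000534).

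**Figure D2:**
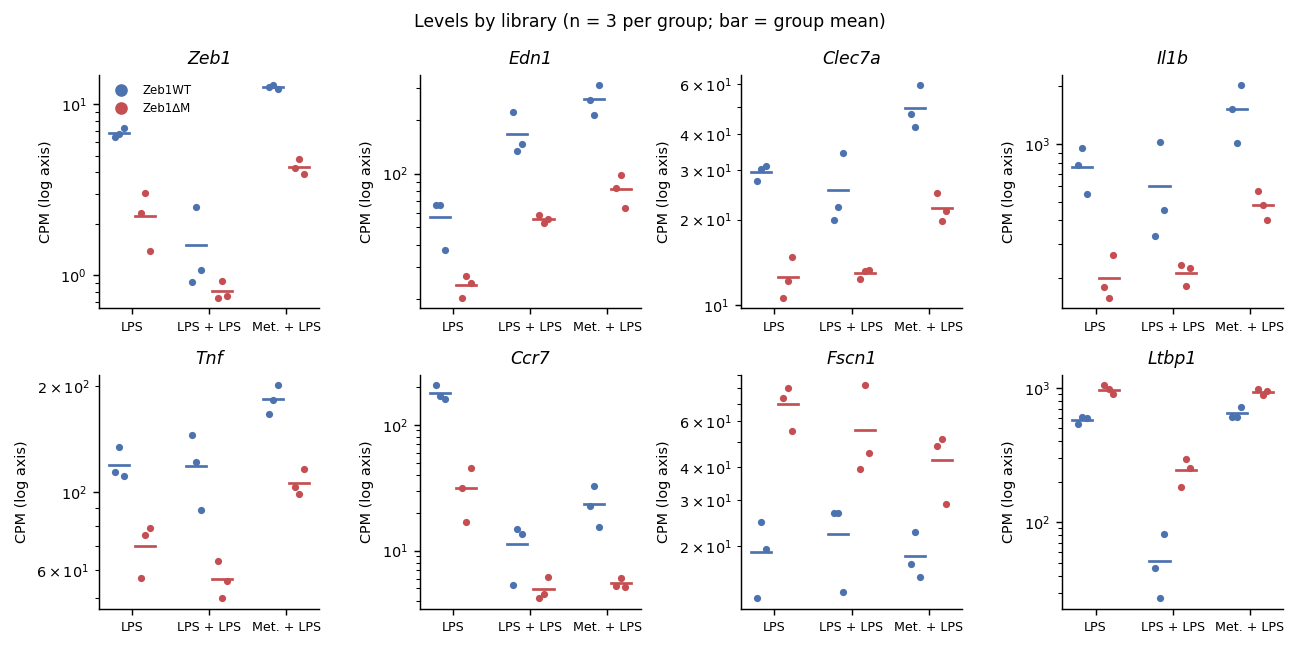
Each point is 1 library and each bar the mean of 3, as CPM on a log axis, for *Zeb1*WT (blue) and *Zeb1*∆M (red) in the 3 treatments. *Edn1*, *Clec7a*, *Il1b* and *Tnf* stood lower in every *Zeb1*∆M library than in any *Zeb1*WT library of the same treatment and *Fscn1* and *Ltbp1* higher, while *Zeb1* and *Ccr7* overlapped in LPS + LPS.

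The 12 largest rises are given first. *Tln2* (talin 2, which links integrins to actin) had a median of 5.96 CPM in *Zeb1*WT (0.458 to 11.7) and 10.6 CPM in *Zeb1*∆M (1.64 to 40.8), and rose by 1.65 (SE 0.32, edgeR adjusted p = 0.0041). The genotypes of *Tln2* overlapped in LPS and were apart in LPS + LPS (up to 0.502 CPM against 1.64 or more) and Metformin + LPS (up to 11.7 against 16.8 or more). *Fscn1* (fascin, an actin-bundling protein, ENSMUSG00000029581.14, chr5:142960343-142973185) had 12.7, 24.8 and 19.6 CPM in *Zeb1*WT LPS against 73.4, 80.0 and 54.9 in *Zeb1*∆M LPS. In LPS + LPS it had 26.9, 26.8 and 13.4 CPM against 39.4, 82.0 and 45.5, and in Metformin + LPS 17.2, 22.6 and 15.3 against 48.3, 51.3 and 28.9. All 9 *Zeb1*∆M libraries stood above all 9 *Zeb1*WT libraries (log2 fold change 1.47, SE 0.19, edgeR adjusted p = 0.000323). *Ltbp1*, which binds latent TGF-beta in the matrix, had medians of 597 and 894 CPM (1.16, SE 0.24, edgeR adjusted p = 0.00556), and *Tgfbr3*, the betaglycan co-receptor, medians of 6.12 and 13.8 CPM (1.19, SE 0.23, edgeR adjusted p = 0.00382). *Ltbp1* was separated in each treatment, with 27.3 to 81.3 CPM in *Zeb1*WT LPS + LPS and 182 to 296 CPM in *Zeb1*∆M LPS + LPS.

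*Jag1* (a Notch ligand) rose by 1.13 (SE 0.26, edgeR adjusted p = 0.0124) and *Efnb2* (ephrin B2) by 1.14 (SE 0.30, 0.0247). *Icosl*, the ligand of the T cell costimulator ICOS, rose by 1.15 (SE 0.27, edgeR adjusted p = 0.0131) and was separated in each treatment, from 7.17 to 11.5 CPM against 21.5 to 74.6 in LPS and from 8.66 to 12.8 against 13.5 to 15.2 in Metformin + LPS. The C-type lectin gene *Cd209b* rose by 1.19 (edgeR adjusted p = 0.0209), with 1.55, 0.07 and 1.54 in LPS, LPS + LPS and Metformin + LPS. Other rises were *Sympk* (1.29), *Afap1l1* (1.13), *Ptges2* (1.12) and *Prok2* (1.10). In Metformin + LPS, *Prok2* stood at 30.1, 23 and 30.8 CPM in *Zeb1*WT and 29.5, 31.6 and 102 CPM in *Zeb1*∆M, so a single *Zeb1*∆M library was high there. *Efnb2* was no longer called when replicate 2 of *Zeb1*WT LPS was left out (edgeR adjusted p = 0.0518) or replicate 3 of *Zeb1*∆M Metformin + LPS (0.0526), and neither was *Sympk* without replicate 2 of *Zeb1*∆M LPS (0.0653).

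**Figure D3:**
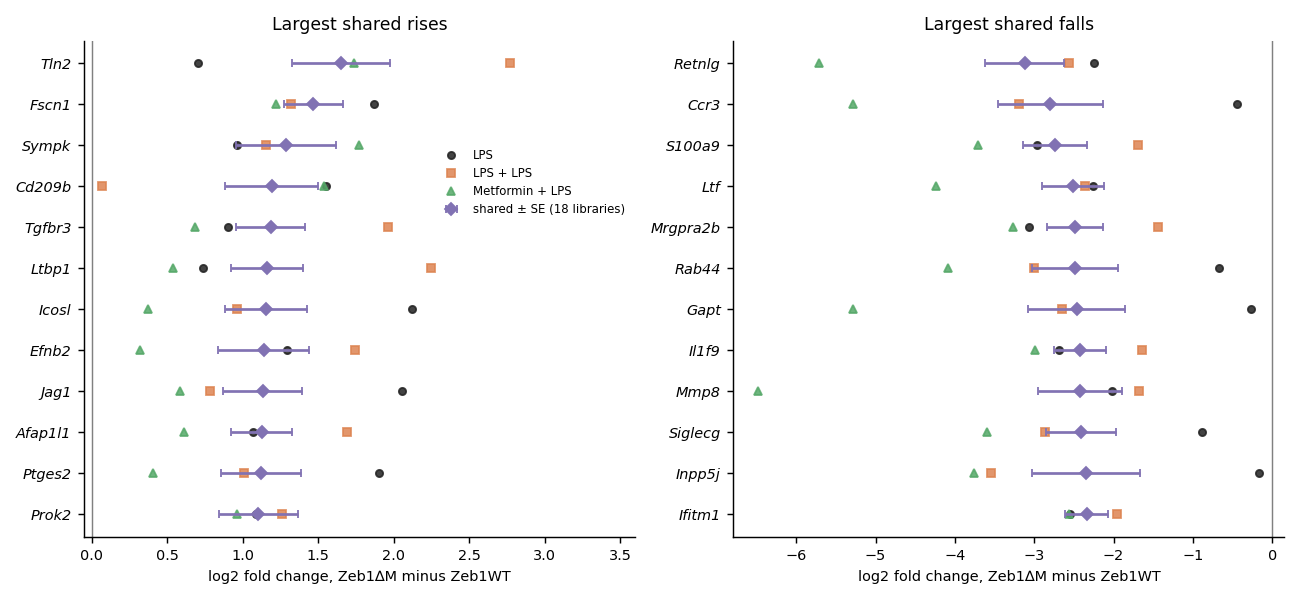
Log2 fold changes (x axis, *Zeb1*∆M minus *Zeb1*WT) of the 12 largest shared rises and 12 largest shared falls by rule, with diamonds for the shared value ± SE over 18 libraries and smaller marks for each treatment. *Ifitm1* lay between -2.57 and -1.96 in the 3 treatments, whereas *Ccr3* and *Gapt* stood at -0.45 and -0.27 in LPS and at -5.28 and -5.29 in Metformin + LPS.

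Of the 12 largest falls, several are also on the marker lists of other cell types described further on. *Retnlg* (a resistin-like protein of neutrophils) was at 49.1, 49.2 and 44.5 CPM in *Zeb1*WT LPS and 6.17, 11.1 and 12.7 in *Zeb1*∆M LPS. In LPS + LPS it was at 26.8, 427 and 146 CPM against 37.8, 20.2 and 43.1, so that replicate 1 of *Zeb1*WT fell within the *Zeb1*∆M range, and in Metformin + LPS at 27.5, 13.9 and 17.1 CPM against 0, 0.369 and 0.708. The fitted shared log2 fold change was -3.12 (SE 0.50, edgeR adjusted p = 0.00109). *S100a9*, a partner in the calprotectin dimer of neutrophils and monocytes, had medians of 100 and 10.3 CPM (-2.74, SE 0.41, edgeR adjusted p = 0.000595), and *Il1f9*, an interleukin 36 gene, medians of 58.8 and 8.84 CPM (-2.43, SE 0.33, edgeR adjusted p = 0.000363). *Ifitm1*, an interferon-induced membrane protein gene, had medians of 19.3 and 2.74 CPM and changed evenly, by -2.56, -1.96 and -2.57 (shared -2.34, SE 0.27, edgeR adjusted p = 0.000131). *Ccr3*, the eotaxin receptor, and *Rab44*, a mast cell Rab gene, had shared values of -2.80 and -2.49, and both lay within 1 of 0 in LPS. *Mrgpra2b*, which shares sequence with *Mrgpra2a* and could share reads with it, *Ltf*, *Mmp8*, *Gapt* and *Siglecg* had values between -2.51 and -2.41. *Inpp5j*, the last of the 12 (-2.35, edgeR adjusted p = 0.0405), lost its call in 13 of the 18 fits that left out 1 library (adjusted p up to 0.0898).

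ZEB proteins are known to bind the E-box CACCTG, read CAGGTG on the other strand. Promoter windows of 300 bases around the start of each gene were taken from RefSeq on build GRCm38.p6, and both letter orders were searched, which are reverse complements and do not overlap each other here. Of the 12 rises, 9 were in that table and 2 held the E-box, and of the 12 falls, 10 were in it and 5 held it. The 2 rises and the first 2 falls that held it are shown to place the E-box against the gene start, 5′ to 3′ on the gene's strand, with the E-box in capitals. The windows are *Icosl* (chr10:78069118-78069417, plus strand), *Efnb2* (chr8:8661193-8661492, minus strand), *Retnlg* (chr16:48872358-48872657, plus strand) and *S100a9* (chr3:90695672-90695971, minus strand).
Icosl: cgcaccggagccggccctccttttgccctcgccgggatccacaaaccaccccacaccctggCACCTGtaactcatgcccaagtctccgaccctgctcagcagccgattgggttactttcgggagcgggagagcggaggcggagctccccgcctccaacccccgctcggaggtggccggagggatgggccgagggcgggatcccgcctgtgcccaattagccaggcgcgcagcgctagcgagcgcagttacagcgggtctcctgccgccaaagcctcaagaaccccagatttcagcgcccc
Efnb2: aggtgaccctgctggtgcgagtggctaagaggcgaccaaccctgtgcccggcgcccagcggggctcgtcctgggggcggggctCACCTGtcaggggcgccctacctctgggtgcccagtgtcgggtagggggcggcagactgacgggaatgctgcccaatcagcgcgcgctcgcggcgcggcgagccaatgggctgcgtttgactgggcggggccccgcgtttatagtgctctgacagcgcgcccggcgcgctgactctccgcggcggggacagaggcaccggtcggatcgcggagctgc
Retnlg: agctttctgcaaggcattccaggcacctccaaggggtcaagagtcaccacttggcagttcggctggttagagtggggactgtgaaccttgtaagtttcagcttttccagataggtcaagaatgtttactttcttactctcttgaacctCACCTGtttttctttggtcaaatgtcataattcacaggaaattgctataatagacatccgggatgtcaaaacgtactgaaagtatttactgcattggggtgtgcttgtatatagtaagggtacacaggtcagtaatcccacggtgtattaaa
S100a9: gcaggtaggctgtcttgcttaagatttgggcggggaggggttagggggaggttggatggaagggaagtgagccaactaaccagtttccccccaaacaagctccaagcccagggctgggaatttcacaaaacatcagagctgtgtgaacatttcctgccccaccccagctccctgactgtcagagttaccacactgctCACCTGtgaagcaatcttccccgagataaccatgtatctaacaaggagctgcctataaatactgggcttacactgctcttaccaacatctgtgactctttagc
The E-box stood in 20.2% of all 32851 windows and in 17% of the windows of tested genes. It stood in 16.8% of 328 windows of genes called higher and 17.1% of 684 windows of genes called lower, so called genes of either direction held it at the share of all tested genes. A match describes these letters and is not a binding site.

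Marker lists of other cell types moved with genotype. For comparison, 2.47% of all genes tested were called higher and 5.26% lower, here and for each later list. Of 23 neutrophil genes tested, 0 were higher and 16 lower (median log2 fold change -2.25, all genes 0.01), among them *S100a8* (-2.17), *Ly6g* (-2.25) and *Cxcr2* (-2.26). *Ly6g* had few reads, averaging 0.732 CPM in *Zeb1*WT and 0.154 in *Zeb1*∆M, with 0 counts in 6 libraries. The summed level of the list overlapped between genotypes in LPS (6860 to 7160 CPM in *Zeb1*WT against 5730 to 8070) and LPS + LPS (5180 to 10200 against 5750 to 6650). In Metformin + LPS the genotypes were apart, at 6840 to 11800 CPM against 4390 to 6400. *Clec4e*, a lectin that macrophages also express upon LPS, made up 49.1% of the summed level, and *Lcn2*, *Hdc* and *Csf3r* 17%, 13.8% and 6.82%. Without *Clec4e* the sums over all treatments were 2740 to 8500 CPM and 1820 to 4530 CPM and overlapped. The sums thus follow a few genes of high level. By gene, the list median was -2.26 in LPS, -1.49 in LPS + LPS and -2.31 in Metformin + LPS. In these treatments 5, 0 and 11 members were called lower and 0 higher. *Elane*, *Mpo* and *Stfa2* had 0 counts in at least 9 of the 18 libraries, *Elane* and *Mpo* were not tested, and *Csf3r*, the G-CSF receptor, averaged 469.6 and 486 CPM in *Zeb1*WT and *Zeb1*∆M. Of 12 genes of eosinophils, mast cells and basophils, 0 were higher and 9 lower (median -2.08), such as *Siglecf* (-2.17), *Kit* (-1.60) and *Gata1* (-2.30). Their summed level was 137 to 263 CPM in *Zeb1*WT LPS against 27.1 to 296, 54.2 to 393 in *Zeb1*WT LPS + LPS against 15.5 to 32.1, and 76.5 to 103 in *Zeb1*WT Metformin + LPS against 7.40 to 10.1. The genotypes were thus apart in LPS + LPS and Metformin + LPS and overlapped in LPS. *Epx*, eosinophil peroxidase, had 0 counts in all libraries. In bulk RNA, fewer cells of a type and less RNA per cell cannot be told apart, and the part of these cells in the other falls was not tested.

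Of 15 B cell genes, 0 were higher and 8 lower (median -1.34), against 5.26% of all genes lower. The medians by treatment were -2.24 in LPS, 0.06 in LPS + LPS and -2.07 in Metformin + LPS, and the summed level was 597 to 911 CPM against 165 to 224 in LPS, 162 to 249 against 154 to 312 in LPS + LPS and 154 to 250 against 56.7 to 69.1 in Metformin + LPS. *Ms4a1* (CD20) had a shared value of -1.81 and *Cd79a* (a B cell receptor subunit) one of -1.43. Of 6 T and NK cell genes tested, 2 were lower, *Cd2* (-1.18) and *Gzmb* (-1.41), while *Cd3e*, *Cd8a*, *Trbc1*, *Ncr1* and *Klrb1c* had 0 counts in at least 9 libraries. The summed level was low but apart in each treatment, at 25.9 to 31.5 CPM against 7.74 to 13.2 in LPS. It was 8.02 to 9.26 CPM against 5.10 to 7.61 in LPS + LPS and 14.6 to 18.8 against 7.40 to 12.6 in Metformin + LPS. The call of *Gzmb* was lost in 11 of the 18 fits without 1 library (edgeR adjusted p up to 0.0852). Of 10 dendritic cell genes, 1 was higher, *Fscn1*, and 5 lower, *Ccr7*, *Ccl22*, *Dpp4*, *Bcl11a* and *Batf3* (list median -1.16). *Ccr7*, the lymph node homing receptor, had medians of 22.5 and 6.11 CPM (-1.95, SE 0.24, edgeR adjusted p = 0.000258). *Clec9a*, *Itgae* and *Siglech* had 0 counts in at least 9 libraries, and the summed level of the list was 43.2 to 879 CPM against 49.6 to 1130, of which *Cd209a* made up 71.2%. By treatment this sum overlapped in LPS and LPS + LPS and was higher in *Zeb1*∆M in Metformin + LPS (132 to 146 CPM against 166 to 631).

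Of 5 mesothelial and fibroblast genes tested, 1 was lower (*Krt18*, -2.76), which lost its call without replicate 2 of *Zeb1*WT LPS + LPS (edgeR adjusted p = 0.105) or replicate 2 of *Zeb1*∆M LPS + LPS (0.0504), and the list summed to 0.851 to 10.8 CPM against 0.896 to 7.19, with 8 of its 15 genes at 0 counts in at least 9 libraries. Of 8 erythroid and platelet genes, 0 were called by edgeR, with 5 lower and 0 higher at an unadjusted p under 0.05, 1 called lower when replicate 1 of *Zeb1*WT LPS + LPS was left out, and *Hbb-bt* nearest at -2.34 (adjusted p = 0.0547). They summed to 921 to 1560 CPM in *Zeb1*WT LPS against 330 to 1190, and to 306 to 1070 in *Zeb1*WT LPS + LPS against 277 to 304. In Metformin + LPS the sums were 1760 to 2720 CPM against 551 to 947. The genotypes were thus apart in LPS + LPS and Metformin + LPS and overlapped in LPS. *Pf4* made up 55.1% of the list, and the part of these genes in the results was not tested.

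**Figure D4:**
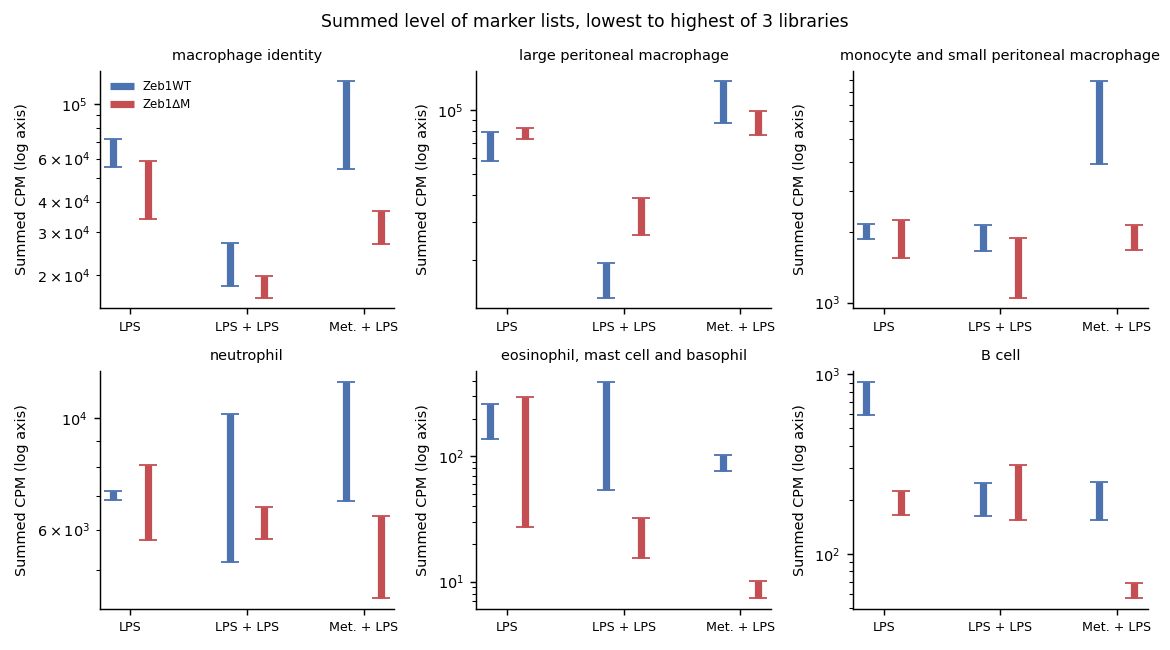
Vertical bars span the lowest to the highest of 3 libraries for the summed CPM (log axis) of 6 marker lists, *Zeb1*WT in blue and *Zeb1*∆M in red. The large peritoneal macrophage list stood higher in *Zeb1*∆M in LPS + LPS, and the list of eosinophils, mast cells and basophils lower in *Zeb1*∆M in LPS + LPS and Metformin + LPS. The macrophage identity, monocyte, neutrophil and B cell lists also stood lower in Metformin + LPS, and the B cell list in LPS.

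Genes of the 2 macrophage populations of the cavity differed in direction, where 2.47% of all genes were called higher and 5.26% lower. Of 21 large peritoneal macrophage genes, 6 were higher and 0 lower by edgeR (median 0.46), against 10 higher and 1 lower at an unadjusted p under 0.05. Those higher were *Gata6*, *Ltbp1*, *Aspa*, *Garnl3*, *Selp* and *F5*. *Aspa* (aspartoacylase) rose by 1.02 (SE 0.17, edgeR adjusted p = 0.00128), with medians of 32.6 and 56.2 CPM and no overlap within a treatment. *Gata6*, the factor that defines resident peritoneal macrophages, had 3.85, 2.38 and 11 CPM in *Zeb1*WT LPS against 29.0, 25.1 and 30.3, and 5.61, 2.50 and 2.71 CPM in *Zeb1*WT Metformin + LPS against 3.19, 3.53 and 3.31. It was called at 1.48 (edgeR adjusted p = 0.0431), lay near *Zeb1* on the chromosome, and lost the call in 13 of the 18 fits without 1 library (adjusted p up to 0.0906), while *Selp* lost it in 4 and *F5* in 6. The list median was 0.16 in LPS, 1.23 in LPS + LPS and -0.03 in Metformin + LPS, and the summed level was 57600 to 79000 CPM against 73100 to 82600, 13300 to 19300 against 26200 to 38800, and 87300 to 136000 against 76600 to 99100. Of 16 genes of monocytes and small peritoneal macrophages, 0 were higher and 7 lower (median -0.79). These were *Ccr2* (-1.27), *Ly6c2* (-1.82), *Plac8* (-1.50), *Fcrls* (-1.08), *Mrc1* (-0.73), *Retnla* (-1.93) and *Ifi27l2a* (-0.72). Their sum was 1870 to 2180 CPM against 1550 to 2260 in LPS, 1670 to 2150 against 1050 to 1890 in LPS + LPS, and 3940 to 8860 against 1680 to 2150 in Metformin + LPS. Of 8 genes of macrophage identity, 1 was called, *Lyz2* (list median -0.05, with -0.13, 0.27 and -0.48 by treatment). Within Metformin + LPS 2 were called lower. *Cd14* (10200 against 8000 CPM), *Fcgr1* (821 against 552) and *Cd68* (752 against 639) averaged lower in *Zeb1*∆M and *Mertk* (33.2 against 40.4) higher. The summed level, 66.3% of it *Lyz2*, overlapped in LPS and LPS + LPS. It was apart in Metformin + LPS (54600 to 124000 CPM against 26900 to 36600).

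Among secreted mediators, 11 of 26 inflammatory cytokines and mediators were lower and 0 higher (median -0.61), and 12 of 24 chemokines were lower and 0 higher (median -0.96), against 5.26% of all genes lower. The study had chosen some of these genes on these samples, so the lists are not independent evidence of direction. Besides *Il1b*, *Tnf* and *Edn1*, the lower mediators were *Inhba* (activin A subunit, -1.24), *Il12a* and *Il12b* (the interleukin 12 subunits, -1.50 and -0.94), *Ebi3* (-0.57), *Il15* (-0.53), *Osm* (-1.34), *Lta* (-2.47) and *Il1rn* (-1.11), the last encoding the natural antagonist of the interleukin 1 receptor. *Il6* averaged 87.9 and 52.5 CPM and was not called (-0.65, edgeR adjusted p = 0.0621). Of the chemokines, *Ccl3* and *Ccl4*, which attract monocytes and T cells, had medians of 752 against 328 CPM and 2630 against 1100 CPM and fell by 1.53 and 1.29 (edgeR adjusted p = 0.000595 and 0.00174). The others were *Ccl2*, *Ccl5*, *Ccl6*, *Ccl7*, *Ccl9*, *Ccl12*, *Ccl22*, *Cxcl2*, *Cxcl3* and *Cxcl10*. Genes of LPS sensing and NF-kB moved little, with 2 of 32 higher, *Chuk* (IKK-alpha, 0.46) and *Lbp* (LPS-binding protein, 0.90), and 1 lower, *Tnip3* (-0.65), and a median of -0.14. Without replicate 1 of *Zeb1*WT LPS + LPS, 3 of these were lower. Of 30 interferon-stimulated genes, 2 were lower, *Mx1* (-0.76) and *Oasl1* (-0.61), and 0 higher (median -0.25), where 5.26% of all genes were lower. Singly left-out libraries ended the calls of *Tnip3* in 4, *Lbp* in 1 and *Oasl1* in 9 of 18 fits.

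Some genes that restrain inflammation fell as well, against 5.26% of all genes called lower. Of 29 genes of anti-inflammatory and alternative activation, 0 were higher and 9 lower (median -0.63), including *Il10* (the anti-inflammatory cytokine, -1.32, SE 0.23, edgeR adjusted p = 0.00169), *Acod1* (which makes itaconate, -0.75), *Arg1* (arginase 1, -0.89, with 0.08 in LPS + LPS), *Zfp36* (which destabilises cytokine mRNA, -0.71) and *Retnla* (-1.93). *Il10* had medians of 62.0 and 22.2 CPM. When replicate 1 of *Zeb1*WT LPS + LPS was left out, 1 gene of the list was called higher and 9 lower. Of 16 genes of MHC class II and costimulation, 7 were lower and 1, *Icosl*, higher (median -0.82). *H2-Aa*, *H2-Ab1* and *H2-Eb1*, which encode class II chains, changed by -1.26, -1.02 and -1.32, and *Ciita*, their master regulator, by -1.53. *H2-Eb1* ranged from 587 to 2610 CPM in *Zeb1*WT and from 274 to 538 in *Zeb1*∆M, so all 9 libraries of each genotype were apart. B cells and dendritic cells also express these genes.

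In metabolism, genes called lower in the shared fit lay mainly in glycolysis and the mitochondrial genome, and the glycolysis list hardly moved in LPS + LPS. Of all genes tested, 5.26% were called lower. Of 27 genes of glycolysis and glucose transport, 9 were lower and 0 higher (median -0.40, with -0.47, -0.07 and -0.63 by treatment). They were the glucose transporters *Slc2a1* (-0.52) and *Slc2a3* (-1.96), the lactate transporter *Slc16a1* (-0.68), and the enzyme genes *Pfkp* (-0.57), *Aldoa* (-0.52), *Tpi1* (-0.50), *Gapdh* (-0.72), *Pgk1* (-0.48) and *Pgam1* (-0.72). Taken by treatment, 1 member was called lower in LPS, 0 in LPS + LPS and 9 in Metformin + LPS. The summed level of the list overlapped in LPS + LPS, at 15300 to 18700 CPM against 15600 to 18000, and was apart in LPS and Metformin + LPS. *Pfkp* (phosphofructokinase) had medians of 189 and 129 CPM and changed by -0.60, -0.61 and -0.51 in LPS, LPS + LPS and Metformin + LPS (edgeR adjusted p = 0.00185). *Gapdh* lost its call without replicate 1 or replicate 2 of *Zeb1*∆M Metformin + LPS (edgeR adjusted p = 0.0528 and 0.053). Of 14 transcripts of the mitochondrial genome, 10 were lower and 14 had a value below 0 (median -0.79, with -0.80, -0.65 and -0.83 by treatment). Within single treatments, 0 of these transcripts were called lower in LPS, 0 in LPS + LPS and 4 in Metformin + LPS. The shared fit called 8 without replicate 1 of *Zeb1*WT LPS + LPS. The rRNA *mt-Rnr1* stood at 22.4, 16.5 and 12.3 CPM against 6.84, 11.1 and 5.81 in LPS, at 17, 15.5 and 12.1 against 8.49, 8 and 6.39 in LPS + LPS, and at 658, 270 and 438 against 131, 132 and 207 in Metformin + LPS (-1.21, SE 0.18, edgeR adjusted p = 0.000702). Mitochondrial reads can also follow RNA quality, which was not tested. Their share of counts was lower in every *Zeb1*∆M library than in any *Zeb1*WT library of the same treatment. It was 0.672% to 1.12% in *Zeb1*WT against 0.529% to 0.659% in LPS, and 0.723% to 0.958% against 0.513% to 0.654% in LPS + LPS. In Metformin + LPS it was 2.05% to 2.79% against 1.19% to 1.91%.

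Of all genes tested, 5.26% were called lower and 2.47% higher. Of 68 nuclear genes of the respiratory chain, 3 were lower, *Atp5e* (-0.44), *Atp5l* (-0.51) and *Cox5a* (-0.40), and 0 higher by edgeR (median -0.07). At an unadjusted p under 0.05, 18 were lower and 0 higher, and within Metformin + LPS 7 were called lower. With median-of-ratios scaling 8 were lower. Of 101 genes of mitochondrial translation, 1 was higher, *Mrpl38* (0.58), and 0 lower by edgeR, although 78 had a value above 0 and 13 were higher and 0 lower at an unadjusted p under 0.05 (median 0.12, with 0.23, -0.05 and 0.22 by treatment). Of 26 amino acid transporters, 1 was called, *Slc38a10* (0.44), which lost its call in 13 of 18 fits without 1 library and with median-of-ratios scaling. Of 46 autophagy and mitophagy genes, 5 were lower, *Tbc1d17* (-1.14), *Gabarap* (-0.66), *Gabarapl2* (-0.42), *Rab9* (-0.46) and *Cisd2* (-0.38), and 1 higher, *Pink1* (0.80, edgeR adjusted p = 0.0495), with a list median of 0.12. At an unadjusted p under 0.05 the balance was the other way, with 7 lower and 10 higher, and with median-of-ratios scaling *Pink1* was not called and 6 were lower. The study had picked some of these on these samples, so their direction is not independent evidence. *Tbc1d17*, a Rab GTPase-activating protein that restrains autophagosome formation in mitophagy, ranged from 35.5 to 62.5 CPM against 12.5 to 32.5, so the genotypes were apart over all 18 libraries (SE 0.17, edgeR adjusted p = 0.000595). *Sqstm1* (p62) had a value of -0.39 (edgeR adjusted p = 0.0559). Of 32 genes of the mTORC1 pathway, 1 was lower, *Rheb* (-0.37). Of 28 antioxidant genes, 2 were lower, *Txn1* (-0.63) and *Gstp1* (-0.55), where 5.26% of all genes were lower. When replicate 1 of *Zeb1*WT LPS + LPS was left out, 0 of the mTORC1 genes and 1 of the antioxidant genes were called. Singly left-out libraries ended the calls of *Cox5a* and *Rheb* in 14 of 18 fits, *Gstp1* in 7, *Atp5l* in 5, *Gabarapl2* in 4 and *Cisd2* in 2.

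Of 25 apoptosis regulators, 6 were lower and 1 higher, where 5.26% of all genes were lower and 2.47% higher. Those lower included *Mcl1* (-0.65) and *Bcl2a1a*, *Bcl2a1b* and *Bcl2a1d* (-1.23, -1.01 and -1.43), which protect cells and whose near-identical copies can share reads, but also *Bcl2l11* (BIM, -1.01) and *Pmaip1* (NOXA, -1.62), which promote death. *Birc2* (cIAP1) rose by 0.52. *Mcl1* had 76.3 to 199 CPM in *Zeb1*WT and 50 to 109 in *Zeb1*∆M, without overlap within a treatment. Of 37 cell cycle genes, 5 were lower, *Ccnd2* (-0.74), *Cdkn1b* (-1.85), *Pcna* (-0.39), *Cdk1* (-1.01) and *Cdkn1a* (-0.50), the last 2 losing their calls in 7 and 14 of 18 fits without 1 library. Among ZEB genes and epithelial genes known as targets of ZEB1 repression, 14 of 31 had enough counts, 0 were higher by edgeR, also at an unadjusted p under 0.05, and 3 were lower, *Zeb1*, *Cldn1* (-2.68) and *Pkp3* (-1.80). *Cldn1* (a tight junction protein) had medians of 2.66 and 0.631 CPM. *Pkp3* lost its call without replicate 1 or replicate 2 of *Zeb1*∆M Metformin + LPS (edgeR adjusted p = 0.0525 and 0.0606).

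**Figure D5:**
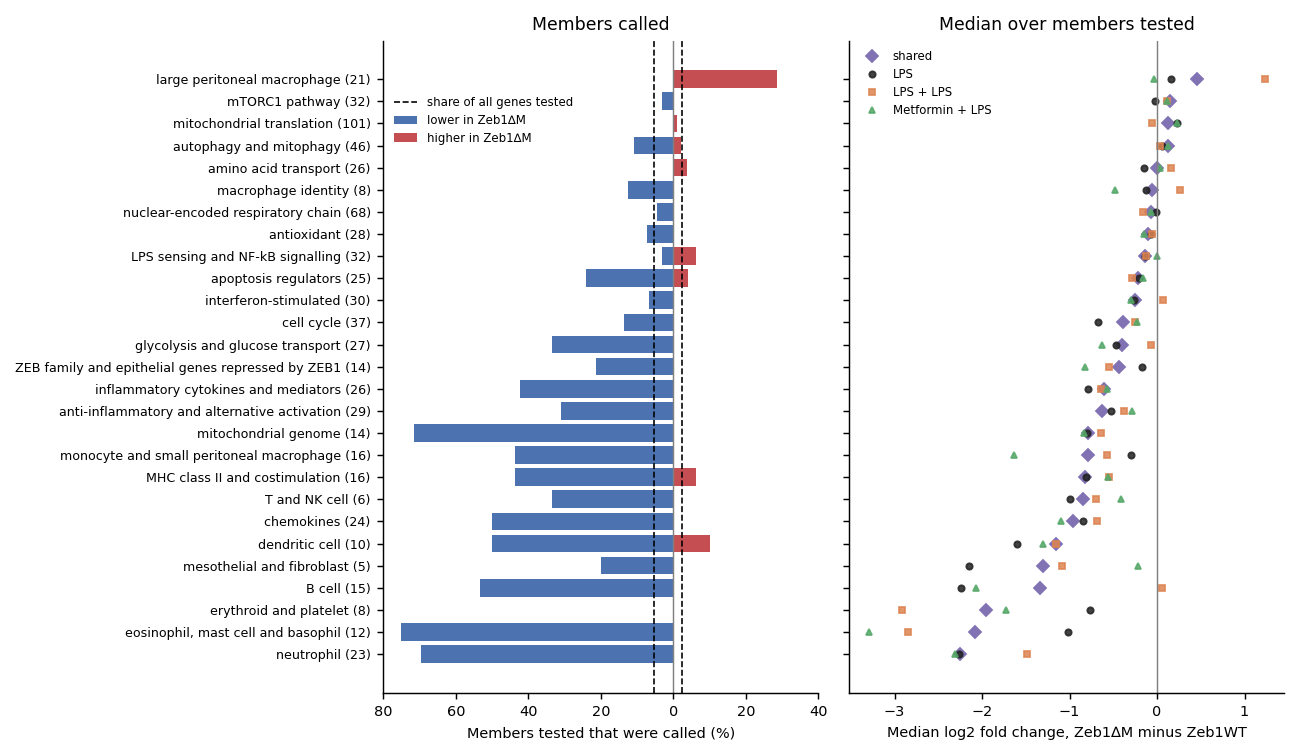
Left, the percentage of each list's tested members (their number in brackets) called higher (red) or lower (blue) in *Zeb1*∆M, with dashed lines at the shares of all genes tested, 2.47% and 5.26%. Right, the median log2 fold change of each list, shared and by treatment. The lists of neutrophils, of eosinophils, mast cells and basophils and of the mitochondrial genome had the largest shares of lower members, and that of large peritoneal macrophages the largest share of higher ones.

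A shared value can average unequal effects, and this was tested as the genotype by treatment interaction. At an adjusted p under 0.05, 33 genes (0.245%) differed between treatments, 10 of them among the 1039 genes called as shared. Their number was 86 when replicate 1 of *Zeb1*WT LPS + LPS was left out and 2 when replicate 3 of *Zeb1*WT LPS was, so it rested on single libraries. *Ighm* (the IgM heavy chain) had -1.88 in LPS, 0.18 in LPS + LPS and -2.27 in Metformin + LPS (edgeR interaction adjusted p = 0.039), and *Ms4a1* had -2.51, -0.04 and -2.75 (0.039). *Lbp* had -0.08, 1.96 and 0.85 (edgeR interaction adjusted p = 0.0398). *Bcl2a1a* stood at 849, 422 and 1190 CPM in *Zeb1*WT Metformin + LPS against 134, 138 and 144, and at 120, 123 and 83.5 against 78.9, 59.5 and 82.5 in LPS (edgeR interaction adjusted p = 0.0457). For these genes the shared value describes no single treatment. For *Tnf*, *Edn1*, *Clec7a* and *Il1b*, the edgeR interaction adjusted p was 0.794, 0.795, 0.893 and 0.907, which does not show that their effects were equal. *Edn1*, *Clec7a* and *Il1b* had been picked for evenness, so high values were to be had from that choice.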

How the data were processed

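The authors deposited whole-number gene counts for 18 libraries, made, per the submitters' notes, with STAR and RSEM on GRCm38 and with DESeq2 named for the tests. Versions, the strand setting and the RNA-seq methods are not given in the sources used here. The kit was TruSeq Stranded mRNA. From these counts, genes passing filterByExpr on the 6 groups were fitted in edgeR 4.0.16 (R 4.3.3, limma 3.58.1) with TMM factors, terms for treatment and genotype, and the quasi-likelihood test, with Benjamini-Hochberg adjustment over all 13443 genes. Interaction and per-treatment values came from a fit of 6 group means. DESeq2 1.42.0 was an alternative, and both were tested on simulated counts. CPM are TMM-adjusted, and depth limits genes under about 1 CPM, where 1 library holds few reads. Same-group libraries differed beyond counting noise in every pair (chi-square per degree of freedom 15.5 to 191.5). Coordinates are GENCODE M21.

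Named genes were *Zeb1*, *Zeb2*, *Lyz2* and *Lyz1*, the 12 largest called rises and falls (mean log2 CPM of at least 3, no Gm or Rik symbols, the same side in 3 treatments), up to 4 members per list by adjusted p, up to 5 genes by interaction p and 5 by evenness, and called neighbours. The 5 by evenness also had to show a log2 fold change of at least 1 in size and no overlap between genotypes in any treatment. Other list members, *Il6*, *Sqstm1*, *Adgre1*, *Itgam* and *Csf1r* were named after their values were seen. The contrast, the 28 lists and the rules were chosen with earlier results of these data known. Alternatives were median-of-ratios factors, DESeq2, no filter, a replicate block, the mean of 3 treatment differences, a tested log2 fold change of 0.5, and libraries or treatments left out.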

Additional observations from a re-analysis of the deposited data

Results flagged for a closer look

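Named genes whose genotype difference varied with treatment by edgeR's interaction test, with the difference itself tested, are given as values. *Ms4a1* and *Ighm*, both B cell genes, had an adjusted p of 0.039 each, with log2 fold changes of -2.51, -0.04 and -2.75 and of -1.88, 0.18 and -2.27 in LPS, LPS + LPS and Metformin + LPS. *Lbp* (adjusted p = 0.0398) had -0.08, 1.96 and 0.85. *Gm7336* (adjusted p = 0.0398) had -0.34, -0.28 and -2.40, and *Bcl2a1a* (adjusted p = 0.0457) had -0.56, -0.63 and -2.57. No group of 3 libraries was tested for a library far from the others.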

How the results depend on the processing

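The 1039 genes called for the shared effect became 1639 with no low-count filter, 1656 with DESeq2, 121 when tested against an absolute log2 fold change of 0.5 (3 higher, 118 lower), and 582, 541 and 280 without LPS, LPS + LPS and Metformin + LPS. Leaving out 1 library gave 669 (without replicate 1 of *Zeb1*∆M Metformin + LPS) to 1176. With median-of-ratios factors there were 274 higher and 819 lower genes, 1387 genes were called for the mean of the 3 treatment differences, and lower genes exceeded higher ones in every setting. Correlations of the deviations of same-numbered libraries ranged from -0.0894 to 0.137, which shows no pairing by number but cannot exclude one. With the replicate block of 9 pairs 759 genes were called, and with the replicate block as a 3-level term 987 for the shared effect and 3 in place of 33 for the interaction.

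The 33 interaction calls became 813 with no filter and 386 with DESeq2, and 2 to 86 with 1 library left out. Within LPS, 154 calls became 738 with no filter and 506 with DESeq2, with a range of 55 to 244 over left-out libraries. Within LPS + LPS, 91 became 640 and 371, with a range of 29 (without replicate 2 of *Zeb1*∆M LPS + LPS) to 397 (without replicate 1 of *Zeb1*WT LPS + LPS). Within Metformin + LPS, 789 became 1213 and 1357, with a range of 321 to 965. The cause of these changes was not tested. Without replicate 1 of *Zeb1*WT LPS + LPS, shares in the treatment left out were 71.4% and 89.9% in LPS, 86% and 84.7% in LPS + LPS, and 60.9% and 83.7% in Metformin + LPS, for rises and falls. Of 105 named genes called in the shared fit, 80 kept the call without any 1 of the 18 libraries, 86 with the block of 9 pairs and 50 of 104 without Metformin + LPS, and none changed sign under an alternative. *Zeb2*, which was not called, had -0.0506 without LPS + LPS.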
